A study of Mus musculus with 21 samples.

Results

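The red cell genes Hbb-b2, Alas2, Slc4a1, Bpgm and Tfrc were followed through lung injury in 3 inbred mouse strains. Every probe set that the array annotation assigns to one of these 5 genes was taken, which gave 15 probe sets, 3 of them control spots for Tfrc that were left out. Of the 12 others, 9 passed the filter on dim signal, and each gene had at least 1 among them. The array carried 12393 genes with a symbol of their own, and 9079 were tested. RNA came from whole right lungs of mice of the strains C57BL/6, C3H/HeJ and A/J, which were either labelled as controls or given bleomycin, a DNA-breaking antitumour drug that injures the lung, from an implanted osmotic pump. Each of the 21 Affymetrix arrays held 1 pool of 3 to 5 mice, so a group of n arrays means n pools.

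C57BL/6 mice were sampled as controls (n = 2 pools), 3 weeks after bleomycin (n = 2), at 6 weeks (n = 1, female) and when moribund, with no time stated (n = 2). C3H/HeJ had 2 control pools, 2 from 3 weeks and 2 from 6 weeks, and A/J had 2, 4 and 2. Groups of 2 held 1 male and 1 female pool. Treated males received 100 and treated females 125 mg/kg, and the A/J mice of 3 weeks had a second male pool (80 mg/kg) and a second female pool (100 mg/kg). Sex and dose can therefore not be told apart within the treated C57BL/6 and C3H/HeJ groups. The labels give neither the age of the mice nor what the controls received. Nothing says whether the pools of a group were treated separately, so p-values measure the spread between pools only.

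Red cells are made mainly in bone marrow, and in the mouse also in spleen; young red cells that have lost their nucleus, the reticulocytes, still carry messenger RNA when they enter the blood. The lung holds a large blood volume, so a whole-lung extract contains such RNA. Hbb-b2 encodes a beta chain of adult haemoglobin, Alas2 the erythroid enzyme that starts haem synthesis, and Slc4a1 the anion exchanger of the red cell membrane. Bpgm makes bisphosphoglycerate, which lowers the oxygen affinity of haemoglobin, and Tfrc, the transferrin receptor, takes up iron in erythroblasts and in many dividing cells. In such bulk samples fewer cells of a type and less RNA per cell cannot be told apart.

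Red cell RNA was measured on every array. A probe set annotated jointly to the beta-globin genes Hbb-bt, Hbb-bs, Hbb-b2 and Hbb-b1 (1417184_s_at) ranked between 2 and 12 by brightness on all 21 arrays, with a quantile-normalized intensity between 6192 and 7395. It names no single gene and is not counted among the 15; its difference at 3 weeks in C57BL/6 was -0.08 on the log2 scale, not called, and quantile normalization gives the same value to the same rank on every array. Hbb-b2 was read from 1427866_x_at, annotated to it alone, which ranked between 3217 and 15873. Alas2 ranked between 97 and 2162. Of the regulators that define the erythroid line, Klf1 was below the dim filter, and Gata1 and Epor, the erythropoietin receptor, were tested. Deposited array medians ran from 58.4 to 111 (a ratio of 1.90), no pair of arrays was identical, and the Gapdh 3' to 5' ratio, a sign of RNA quality, ran from 0.770 to 2.08, highest on the C3H/HeJ female array at 6 weeks.

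Promoter windows of 250 bases before the start site were found in the RefSeq table of build GRCm38.p6 for 3 of the 5 genes, Alas2, Bpgm and Tfrc. They are shown for Alas2 and Bpgm, both used by maturing red cells, since their levels correlated here. Capitals mark matches, on either strand, to a GATA hexamer (AGATAA or AGATAG, and with T as the first letter TGATAA or TGATAG) or to CCNCNCCC, a form of the CACCC box. These are the letters that the erythroid factors GATA1 and KLF1 are known for. The Alas2 window is chrX:150547167-150547416 and the Bpgm window chr6:34476106-34476355, both on the plus strand.
Alas2: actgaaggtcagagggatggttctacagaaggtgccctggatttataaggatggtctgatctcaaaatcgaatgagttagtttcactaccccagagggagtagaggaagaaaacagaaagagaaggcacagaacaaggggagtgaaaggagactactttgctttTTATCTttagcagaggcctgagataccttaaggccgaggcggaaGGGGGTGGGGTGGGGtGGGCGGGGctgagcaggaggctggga
Bpgm: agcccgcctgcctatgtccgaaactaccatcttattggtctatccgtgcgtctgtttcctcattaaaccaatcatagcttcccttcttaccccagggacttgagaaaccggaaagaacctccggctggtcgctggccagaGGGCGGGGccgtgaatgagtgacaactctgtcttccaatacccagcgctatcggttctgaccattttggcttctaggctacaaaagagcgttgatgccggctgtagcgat

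The Alas2 window held 1 GATA match, at -86 to -81 from the start on the minus strand, and 4 CCNCNCCC matches that partly overlap, between -42 and -19. The Bpgm window held no GATA match and 1 CCNCNCCC match, at -110 to -103. The windows of the 2 Tfrc starts held no GATA match and 3 and 2 CCNCNCCC matches. Of all 32851 promoter windows of this length, 26.5% held at least 1 of the GATA hexamers and 45.9% at least 1 CCNCNCCC match, so either is common. A match is a stretch of letters and not a measured binding site.

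The signal of the Hbb-b2 probe set separated the treated C57BL/6 lungs from every other group. A level of it set across strains is uncertain, since the strains carry different beta-globin genes. Its quantile-normalized intensity (the unit of all levels below, comparable between arrays and not between genes) was 140.4 in the male and 177 in the female C57BL/6 control pool. It was 50.7 and 40.3 in the male and female pools at 3 weeks, 36.7 in the female pool at 6 weeks, and 44.2 and 67.8 in the moribund pools. All 5 treated C57BL/6 pools lay below both of their controls and below each of the 14 A/J and C3H/HeJ pools, of which the lowest was the C3H/HeJ female control at 103. By stage, 28.8% of all genes had both C57BL/6 pools of 3 weeks below both controls. For the moribund pools this was 28.1%, and for the 6 week pool 43.6%. The share of all genes also below the other strains was not counted.

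In C3H/HeJ, Hbb-b2 was 200.1 in the male and 103 in the female control, 269 and 263 at 3 weeks, and 136 and 166 at 6 weeks. The pools at 3 weeks were above both controls, and those at 6 weeks lay between them. In A/J it was 261 and 243 in the controls, 254 to 407 in the 4 pools at 3 weeks (median 274), and 197 and 259 at 6 weeks. The A/J groups overlapped. The 3 treated C57BL/6 groups were the 3 lowest of the 10 group means, 1.17 on the log2 scale below the next, C3H/HeJ control, while the steps among the other 7 groups were at most 0.48. This order sets levels across strains and carries the same uncertainty.

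Alas2 also had the treated C57BL/6 groups as its 3 lowest means, with less distance to the next. It was 1708 and 1969 in the male and female C57BL/6 controls, 667 and 893 at 3 weeks, 574 at 6 weeks and 579 and 881 in the moribund pools. All treated C57BL/6 pools were below both controls, but the C3H/HeJ female control, at 755, and the C3H/HeJ male pool at 6 weeks, at 865, lay within their range. The other C3H/HeJ values were 1735 in the male control, 2342 and 1748 at 3 weeks and 1227 in the female pool at 6 weeks. In A/J it was 1748 and 2706 in the controls, 1908 to 3607 at 3 weeks (median 2885) and 1667 and 1997 at 6 weeks, with overlap throughout.

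Slc4a1 was 235 in the male and 72.4 in the female C57BL/6 control, the widest gap between the pools of any group for this gene. The treated C57BL/6 pools were close together, 49.0 and 54.2 at 3 weeks, 44.0 at 6 weeks and 45.0 and 40.5 when moribund, all below the lower control. In C3H/HeJ it was 57.6 and 34.5 in the controls, 73.5 and 116 at 3 weeks and 52.7 and 60.3 at 6 weeks. The C3H/HeJ controls thus overlapped the treated C57BL/6 pools, and the 3 week pools were above both controls. In A/J the 4 pools at 3 weeks, 115 to 143 (median 127), were above both controls (77.1 and 87.0) and both 6 week pools (61.0 and 83.8).

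Bpgm was 499 and 426 in the male and female C57BL/6 controls, 215 and 325 at 3 weeks, 263 at 6 weeks and 231 and 169 when moribund. All 5 treated pools were below both controls. In C3H/HeJ it was 329 and 229 in the controls, 511 and 386 at 3 weeks and 156 and 242 at 6 weeks, so the 3 week pools were above the controls and the 6 week pools were not. In A/J the controls had 305 and 363, the 3 week pools 366 to 626 (median 481) and the 6 week pools 293 and 448. The 3 week pools lay above both controls and overlapped the 6 week pools. The share of all genes with the A/J pools of 3 weeks above both controls was not counted, here or for Slc4a1.

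Tfrc separated treated from control pools in C57BL/6 and in neither other strain. It was 798 and 685 in the C57BL/6 controls, 442 and 531 at 3 weeks, 541 at 6 weeks and 384 and 377 when moribund, the lowest group mean of the 10. The C3H/HeJ pools ran from 534 to 753 and the A/J pools from 668 to 831, with treated and control pools interleaved in both strains. The highest of the 10 group means was that of the C57BL/6 controls, and the 4 means below it differed by steps of 0.03, 0.02, 0.00 and 0.15 on the log2 scale, within the spread between pools.

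**Figure D1:**
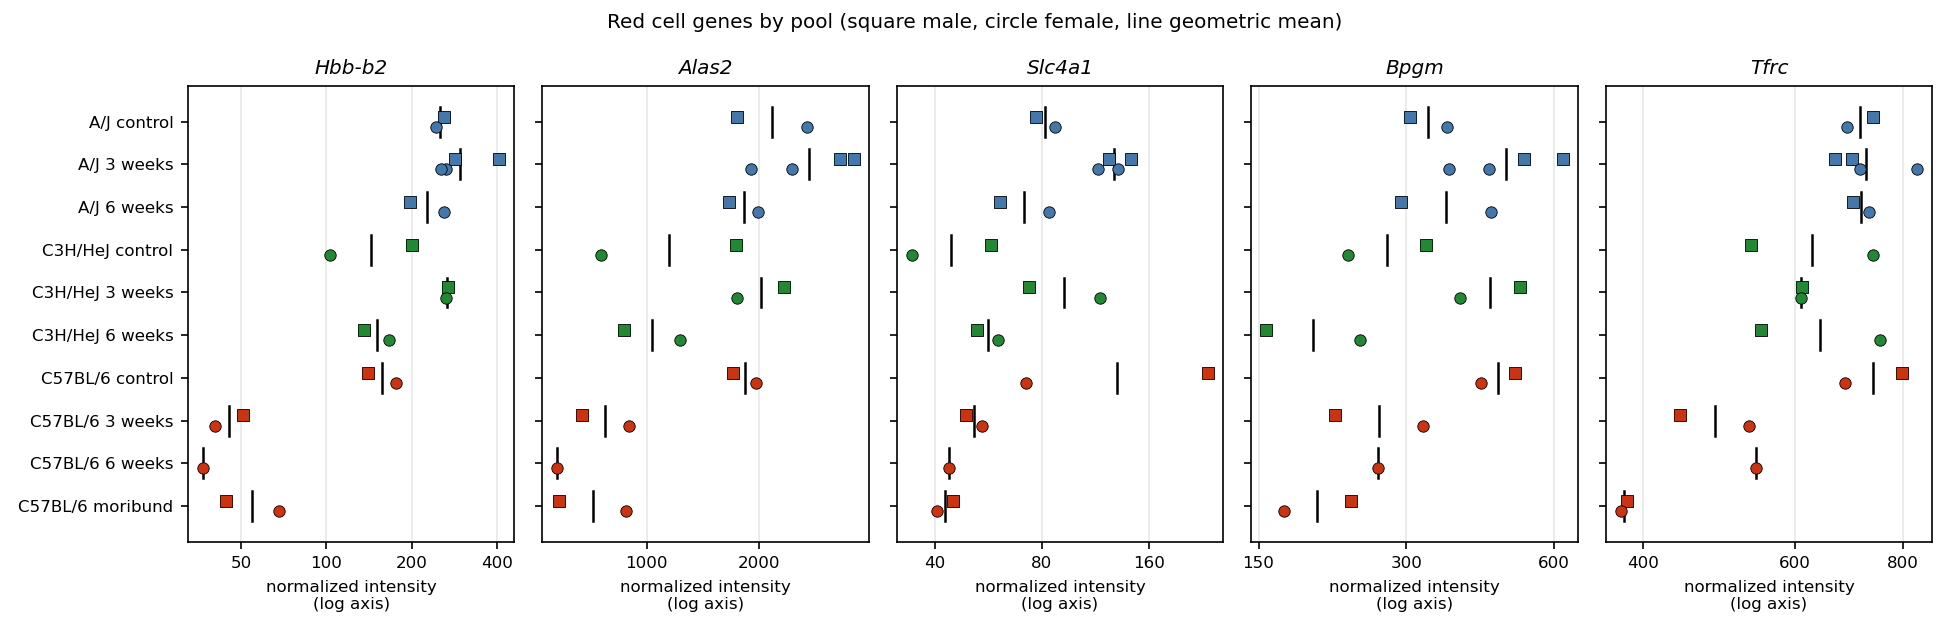
Quantile-normalized intensity of the 5 genes (x axes, logarithmic, a different range for each gene) in the 21 pools, by strain and stage. Squares are male and circles female pools, and the bar is the geometric mean. The treated C57BL/6 pools (36.7 to 67.8 for Hbb-b2) lie below their controls for all 5 genes. Taken stage by stage, this held for 28.8% of all genes at 3 weeks, 28.1% when moribund and 43.6% at 6 weeks. The male C57BL/6 control stands apart for Slc4a1.

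At 3 weeks in C57BL/6, 4 of the 5 genes were lower than in control lung. The signal of the Hbb-b2 probe set 1427866_x_at fell 2.83-fold, Alas2 2.35-fold, Slc4a1 2.21-fold and Tfrc 1.51-fold. Bpgm differed in the same direction, by 1.70-fold, and did not pass. Which beta-globin chains 1427866_x_at reads in C57BL/6 was not tested. The joint beta-globin probe set differed by -0.08 and the dim second Hbb-b2 probe set, 1427865_at, by 0.23 on the log2 scale, neither called. The 4 called stand against 13.1% of all genes called in this comparison, 5.97% as lower. All 5 genes had both treated pools below both controls, as did 28.8% of all genes.

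Differences here are log2 of intensity plus 16, which understates the change of dim genes, with the standard error from limma over all 21 arrays and p-values adjusted by Benjamini-Hochberg over 9079 genes. Hbb-b2 changed by -1.50 ± 0.26 (SE, n = 2 against 2, limma adjusted p = 0.001), Alas2 by -1.23 ± 0.35 (adjusted p = 0.0271) and Slc4a1 by -1.14 ± 0.34 (adjusted p = 0.0329). Tfrc changed by -0.59 ± 0.16 (adjusted p = 0.0193), and Bpgm differed by -0.77 ± 0.28 (adjusted p = 0.0876). The median change of all genes was 0.01.

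Hbb-b2 kept its call when each of the 4 arrays was left out in turn (limma adjusted p between 0.00534 and 0.0242, and between 0.00025 and 0.0245 over all alternatives). Slc4a1 did not: without the male control it differed by -0.36 (limma adjusted p = 0.566; range over alternatives 0.000743 to 0.566), and its call was also lost without the male or the female pool at 3 weeks (limma adjusted p = 0.229 and 0.0846). Alas2 lost its call without the male pool at 3 weeks (-0.98), the male control (-1.36) or the female control (-1.10), and Tfrc without the male pool at 3 weeks (-0.52) or the male control (-0.41); their limma adjusted p ranged from 0.0107 to 0.256 and from 0.00715 to 0.255. Without the male control or the male 3 week pool, 1 of the 5 genes was called.

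Within each sex all 5 genes were lower in the treated pool, with 1 pool against 1 and no test. In males the difference ran from -0.83 for Tfrc to -1.95 for Slc4a1. In females it was -1.77 for Hbb-b2 and -1.13 for Alas2, and only between -0.33 and -0.37 for Slc4a1, Bpgm and Tfrc.

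In moribund C57BL/6 lung all 5 genes were lower than in control lung, against 15.2% of all genes called and 8.3% called as lower. Slc4a1 fell 2.54-fold (-1.34 ± 0.34, limma adjusted p = 0.0119), Alas2 2.53-fold (-1.34 ± 0.35, 0.0147) and the signal of the Hbb-b2 probe set 2.44-fold (-1.29 ± 0.26, 0.00292). Bpgm fell 2.23-fold (-1.16 ± 0.28, 0.00986) and Tfrc 1.90-fold (-0.93 ± 0.16, limma adjusted p = 7e-04). All 5 also had both moribund pools below both controls, as had 28.1% of all genes. This comparison used the same 2 control pools as the 3 week one, so the pair are not independent. Leaving out 1 array left 2 to 4 of the 5 called. Without the male control Alas2 (-1.47), Slc4a1 (-0.56) and Bpgm (-1.06) lost their calls, and without the female control Hbb-b2 (-1.09) and Alas2 did. Without the moribund female pool Slc4a1 and Bpgm lost theirs, and without the moribund male pool Alas2 (-0.99). Tfrc was called in each of these fits.

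Between moribund and 3 week lungs none of the 5 genes was called by limma, nor was any of the 9079 genes (0% called; 886 genes, or 9.76%, at an unadjusted p under 0.05). The differences, moribund minus 3 weeks, were 0.21 for Hbb-b2 (95% interval -0.35 to 0.77), -0.11 for Alas2 (-0.85 to 0.63) and -0.20 for Slc4a1 (-0.91 to 0.51). They were -0.39 for Bpgm (-0.99 to 0.21) and -0.34 for Tfrc (-0.67 to -0.0018), whose unadjusted p was 0.0489 and limma adjusted p 0.511. The single female array at 6 weeks was below both controls for all 5 genes, as it was for 43.6% of all genes, with differences from the female control of -1.87 for Hbb-b2 and -1.75 for Alas2 and no test.

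**Figure D2:**
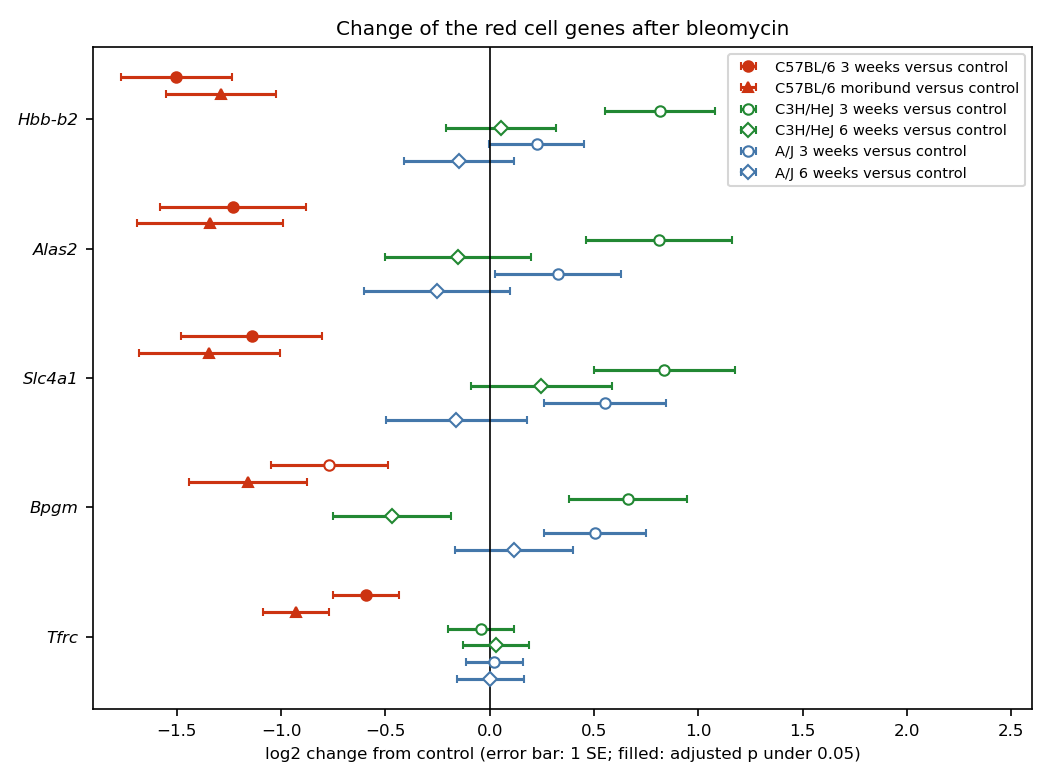
Change of each gene from the control pools of its own strain (x axis, log2; error bars are 1 SE from limma), for 6 comparisons coloured by strain. Filled symbols passed an adjusted p of 0.05: 4 genes in C57BL/6 at 3 weeks and 5 when moribund, and none in C3H/HeJ or A/J.

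In C3H/HeJ at 3 weeks, 4 of the genes lay on the other side of zero and none passed the test (2.83% of all genes called). The differences from control were 0.82 ± 0.26 for Hbb-b2 (limma adjusted p = 0.119), 0.81 ± 0.35 for Alas2 (0.254), 0.84 ± 0.34 for Slc4a1 (0.22) and 0.66 ± 0.28 for Bpgm (limma adjusted p = 0.251). Each had an unadjusted p under 0.05, as did 16.4% of all genes. Tfrc differed by -0.04 ± 0.16. After quantile normalization the 4 genes had both 3 week pools above both controls, as did 21.1% of all genes. As deposited, the male treated pool was below the male control for Hbb-b2 (186.6 against 237.9), Alas2 (1718.8 against 2071) and Slc4a1 (52.6 against 63.5). The deposited female treated pool was above the female control for each of these. Deposited array medians were 61.6 for the male treated pool and 98.5 for the male control.

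The female control pool was the lower control for all 4 genes. Within females the treated pool was higher by 1.23 for Hbb-b2, 1.19 for Alas2, 1.39 for Slc4a1 and 0.72 for Bpgm. Within males the corresponding values, after quantile normalization, were 0.40, 0.43, 0.28 and 0.61. Without the female control the difference for Alas2 was 0.17, and for Hbb-b2 0.37, neither called.

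At 6 weeks in C3H/HeJ no gene of the 5 was called against control by limma (0.11% of all genes) or had an unadjusted p under 0.05 (4.62%), and none was called against 3 weeks (0.187%). Against control the values were 0.06 for Hbb-b2, -0.15 for Alas2, 0.25 for Slc4a1, -0.47 for Bpgm and 0.03 for Tfrc. Against 3 weeks they were -0.76, -0.96, -0.59, -1.13 and 0.07 in the same order of genes, with unadjusted p-values of limma under 0.05 for 3 of the 5, Hbb-b2, Alas2 and Bpgm, and for 13.7% of all genes. The 2 sets share the 6 week pools.

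The change at 3 weeks in the signal of the Hbb-b2 probe set differed between C57BL/6 and C3H/HeJ. Which beta-globin chains it reads in each strain is uncertain. The difference of the changes was -2.32 ± 0.37 (a 4.99-fold ratio; 95% interval -3.11 to -1.53; limma adjusted p = 0.0101), against 0.297% of all genes called. For Alas2 it was -2.04 ± 0.49 and for Slc4a1 -1.98 ± 0.48, both with a limma adjusted p of 0.0704, which did not pass. For Bpgm it was -1.43 ± 0.40 (0.107) and for Tfrc -0.55 ± 0.22 (limma adjusted p = 0.254). All 5 had an unadjusted p under 0.05, as had 14.7% of all genes. The median over the 5 genes was -1.98, against 0.04 over all genes.

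The call of Hbb-b2 was lost without the C3H/HeJ female control (-1.87, limma adjusted p = 0.056), without the C57BL/6 male pool at 3 weeks (-2.42, 0.061) and without the C57BL/6 female control (-2.12, limma adjusted p = 0.0575), and kept in the 5 other fits that leave out 1 array. Over all alternatives its adjusted p ran from 0.00653 to 0.0738. Slc4a1 was called without the C57BL/6 female control (-2.76, limma adjusted p = 0.00657) or the C3H/HeJ male pool at 3 weeks (-2.35, 0.0295), and Alas2 without the C3H/HeJ male control (-2.68, limma adjusted p = 0.0398), with ranges over the alternatives of 0.00657 to 0.258 and 0.0398 to 0.279.

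Set side by side at 3 weeks, the signal of the Hbb-b2 probe set was lower in C57BL/6 than in C3H/HeJ lung by 4.61-fold (-2.20 ± 0.26, limma adjusted p = 5.81e-05), a level across strains that is uncertain since the strains carry different beta-globin genes, and Alas2 was lower by 2.59-fold (-1.37 ± 0.35, 0.027), against 6.4% of all genes called. Slc4a1 (-0.69), Bpgm (-0.71) and Tfrc (-0.32) did not pass. The Alas2 call was lost whenever 1 of the 4 pools was left out: without the C3H/HeJ male or female pool it was -1.16 and -1.58, and without the C57BL/6 male or female pool -1.12 and -1.62 (limma adjusted p between 0.0214 and 0.279 over all alternatives). All 5 genes had both C57BL/6 pools below both C3H/HeJ pools, as had 24.7% of all genes.

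In control lungs of these strains none of the 5 genes, each read by its brightest probe set, was called different by limma (2.53% of all genes called, and 2 of the 5 with an unadjusted p under 0.05, as had 14.7% of all genes). Slc4a1 was nearest, higher in C57BL/6 by 1.29 ± 0.34 (limma adjusted p = 0.0506). Without the C57BL/6 male control this was 0.51, and without the female control 2.07 (limma adjusted p = 0.00088; range over alternatives 0.00088 to 0.614). The differences for the others, C57BL/6 minus C3H/HeJ, were 0.12 for Hbb-b2, 0.67 for Alas2, 0.72 for Bpgm and 0.23 for Tfrc. By single probe sets, 2 of the 9 were called higher in C57BL/6 control lung (2.5% of all probe sets called): Slc4a1 by 1434502_x_at (1.63 ± 0.35, limma adjusted p = 0.0209) and Bpgm by 1415865_s_at (1.24 ± 0.31, limma adjusted p = 0.0446). For these the C57BL/6 changes start from a higher control level than those of C3H/HeJ.

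The probe set of Hbb-b2 is named for one gene, but beta-globin genes are close copies and the strains differ in them. C57BL/6 is known to carry the haplotype with Hbb-bs and Hbb-bt, and A/J and C3H/HeJ the one with Hbb-b1 and Hbb-b2. Which chains the probes match in each strain was not tested, so a level of Hbb-b2 set across strains is uncertain. The same limit holds for a difference of changes between strains. A change within a strain is read by the same probes, but which chains lie behind such a change in C57BL/6 is uncertain as well. Hbb-b2 control levels differed by 0.12 ± 0.26 between C57BL/6 and C3H/HeJ and by -0.63 ± 0.26 between C57BL/6 and A/J, neither called.

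In A/J none of the 5 genes was called by limma at 3 weeks (1.04% of all genes) or at 6 weeks (0.11%). At 3 weeks Slc4a1 differed by 0.55 ± 0.29 and Bpgm by 0.51 ± 0.24 (n = 4 against 2; limma adjusted p = 0.513 and 0.467), and none of the 5 had an unadjusted p under 0.05 (11% of all genes). Hbb-b2 differed by 0.22 (95% interval -0.26 to 0.71), Alas2 by 0.33 and Tfrc by 0.02. At 6 weeks all 5 lay between -0.25 and 0.12, none with an unadjusted p under 0.05 (5.25% of all genes). The change at 3 weeks differed between C57BL/6 and A/J for Hbb-b2 by -1.73 ± 0.35 (limma adjusted p = 0.0181; 1.56% of all genes called) and for no other member, with values of -1.56 for Alas2, -1.70 for Slc4a1, -1.27 for Bpgm and -0.62 for Tfrc. This comparison uses the same C57BL/6 pools as that with C3H/HeJ. Its Hbb-b2 call was lost without the A/J male control (-1.75), the A/J female control (-1.71), the C57BL/6 male (-1.83) or female (-1.62) pool at 3 weeks, or the C57BL/6 female control (-1.53), with limma adjusted p from 0.00476 to 0.149 over all alternatives. Control lungs of C57BL/6 and A/J were not called different by limma at any of the 5 genes (2.8% of all genes), and 1 of the 5, Hbb-b2, had an unadjusted p under 0.05 (16.1%).

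The several probe sets of a gene mostly gave the same direction. Over the 9 that passed the dim filter, 6 were called lower in C57BL/6 at 3 weeks (10.7% of 15084 probe sets called, 5.04% as lower). Both tested Slc4a1 probe sets were among them, 1434502_x_at with -1.50 ± 0.35 (limma adjusted p = 0.0119) and 1416464_at with -1.14. The first of them repeated the high male control, at 187 against 80.2 in the female control and 26.0 and 42.2 in the male and female pools at 3 weeks.

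Of 3 Bpgm probe sets, 1415865_s_at was called (-1.05 ± 0.31, limma adjusted p = 0.039) and 1415864_at (-0.88) and 1448119_at (-0.77) were not. In moribund lung 8 of the 9 probe sets were called lower (12.8% called, 6.9% as lower), all 3 of Bpgm among them, at -1.58, -1.86 and -1.16 in that order. Bpgm by 1415865_s_at was 439 and 447 in the C57BL/6 controls, 174 and 241 at 3 weeks and 194 and 96.6 when moribund, with no overlap between treated and control pools. Among the 9, Tfrc was the exception. Its second probe set, 1422966_a_at, differed by -0.15 ± 0.33 at 3 weeks and 0.15 ± 0.33 when moribund, neither called, and its pools ran from 64.7 to 173 over all groups with no order by treatment.

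The 3 probe sets below the dim filter, fitted with no filter, were not called in any of the 13 comparisons. The Tfrc one, 1422967_a_at, differed by -0.64 ± 0.29 in C57BL/6 at 3 weeks (limma adjusted p = 0.24). The second Hbb-b2 probe set, 1427865_at, differed by 0.23 ± 0.58 and ran from 5.83 to 96.6 over the pools, and 1431743_a_at of Slc4a1 stayed at or below 23.0.

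**Figure D3:**
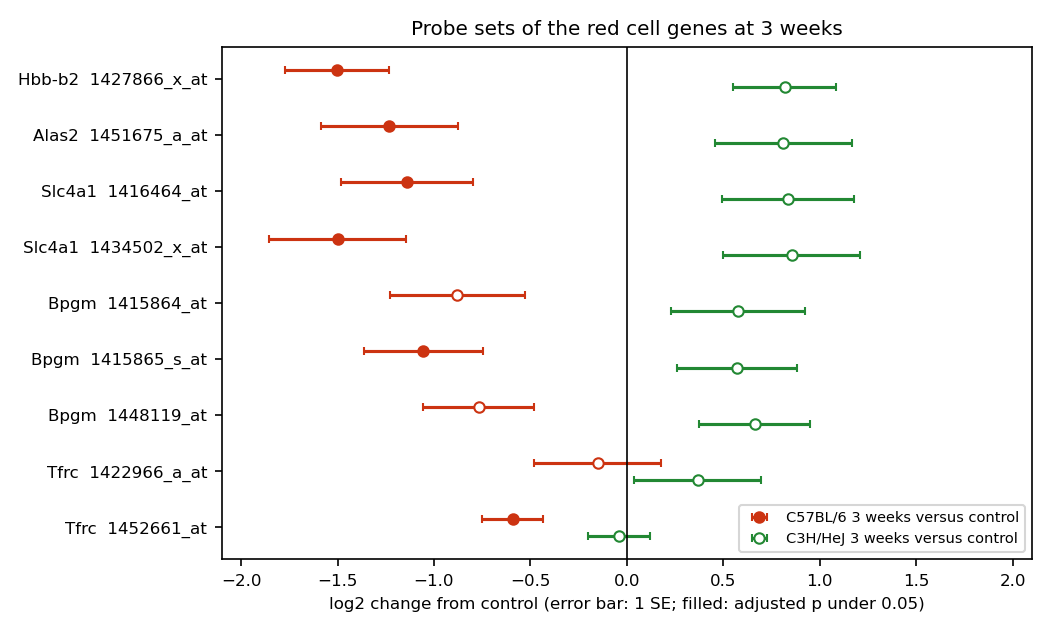
Log2 change at 3 weeks (x axis; error bars are 1 SE from limma) of the 9 tested probe sets, in C57BL/6 and C3H/HeJ. Filled symbols passed an adjusted p of 0.05; 6 probe sets did in C57BL/6 and none in C3H/HeJ (1.7% of all probe sets), and the Tfrc probe set 1422966_a_at lay near zero in C57BL/6.

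Other genes of red cell biology were taken from 6 lists: haemoglobin chains, haem synthesis, membrane and skeleton, metabolism, iron handling and erythroid regulators. Beside the 5, 82 genes were listed and 51 tested. At 3 weeks in C57BL/6, 4 of the 51 were lower and 2 higher, against 13.1% of all genes called, and their median change was -0.09, against 0.01 over all genes. In C3H/HeJ at 3 weeks 2 were higher and none lower, against 2.83% of all genes called, and their median was 0.11. In the difference of the changes 1 was called, against 0.297% of all genes, and between the 3 week lungs of both strains 7 were lower in C57BL/6 and 1 higher, against 6.4% of all genes called there. Of the haemoglobin chains Hbb-b2 alone was tested, of 6 on the array.

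Of 11 haem synthesis genes tested, Alas2 alone was called at 3 weeks in C57BL/6, and 10 of the 11 lay below zero. Fech, ferrochelatase, which puts iron into haem as the last step, differed by -0.53 ± 0.22 (limma adjusted p = 0.136), and Slc25a37, mitoferrin, which brings iron into mitochondria, by -0.62 ± 0.30 (0.196). In C3H/HeJ they differed by 0.69 and 0.76. The difference of the changes was -1.22 ± 0.31 for Fech (limma adjusted p = 0.0824) and -1.38 ± 0.42 for Slc25a37 (0.135), neither passing.

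Of 11 membrane and skeleton genes, Slc4a1 and Tmod1, tropomodulin, which caps the actin of the red cell skeleton and is also made in heart muscle, were lower in C57BL/6 at 3 weeks (Tmod1 -0.74 ± 0.24, limma adjusted p = 0.0489). Cd59a, which shields cells from complement, rose in C3H/HeJ (0.61 ± 0.16, limma adjusted p = 0.0462) and differed by -0.35 in C57BL/6. Of 11 genes of red cell metabolism, Cat, catalase, which breaks down hydrogen peroxide in red cells and many other cells, fell in C57BL/6 (-1.18 ± 0.22, limma adjusted p = 0.00155) and differed by -0.06 in C3H/HeJ. Trim10, needed for terminal red cell maturation, differed by -0.86 ± 0.31 (limma adjusted p = 0.0783) and 0.47, and Ube2o, which clears proteins from reticulocytes, by -0.28 and 0.67, the latter called (0.67 ± 0.16, limma adjusted p = 0.0287). Other genes went the other way, none called. In C57BL/6 these were Gpx1 (0.27 ± 0.11) and Add2 of the membrane list (0.33 ± 0.17). In the difference of the changes they were Blvrb (1.88 ± 0.71, limma adjusted p = 0.221) and the membrane gene Icam4 (0.44 ± 0.29). In C57BL/6, 8 membrane differences were negative and 3 positive, and 7 metabolism differences were negative and 4 positive.

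Iron genes moved both ways. Of 14 tested, Tfrc and Hamp, the iron hormone hepcidin (-0.93 ± 0.26, limma adjusted p = 0.0265), were lower in C57BL/6 at 3 weeks. Hmox1, haem oxygenase, which breaks down haem in macrophages and injured cells, rose (1.53 ± 0.25, limma adjusted p = 0.000511), and Slc40a1, the iron exporter ferroportin, rose by 0.63 ± 0.15 (0.0102). Hmox1 differed by -0.25 in C3H/HeJ, and its difference of the changes was the one called in these lists beside Hbb-b2 (1.78 ± 0.35, limma adjusted p = 0.0417). Of 8 erythroid regulators, Ldb1, a cofactor of GATA1 complexes, was lower in C57BL/6 (-0.97 ± 0.21, limma adjusted p = 0.00498). Gata1 itself differed by -0.02 and Epor by -0.09, neither called. Zfpm1 differed by 0.38 ± 0.17 (limma adjusted p = 0.149). Of the 8 regulators, 6 differences were negative and 2 positive.

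In moribund lung 5 of the 51 were lower and 2 higher, against 15.2% of all genes called and 8.3% called as lower, with a median of -0.06. Lmo2, of the GATA1 complexes and also made in endothelium, was lower (-0.72 ± 0.14, limma adjusted p = 0.00184), as was Myb, which keeps progenitors dividing (-0.83). Cat (-1.20), Car2, carbonic anhydrase (-0.57), and Hamp (-0.80) were lower, and Hmox1 (1.64) and Hk1, hexokinase (0.49), were higher. Hk1 and Car2 in this comparison were named after their values were seen.

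**Figure D4:**
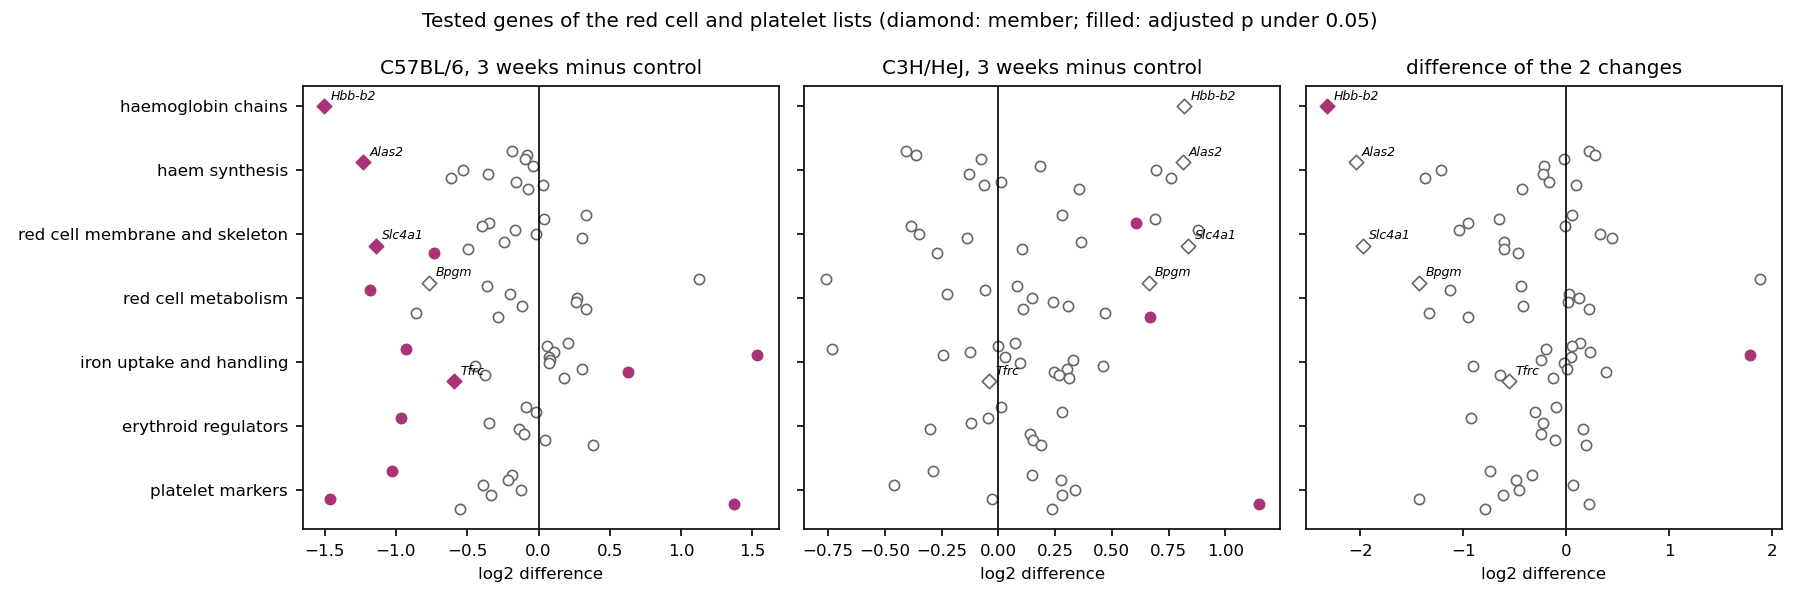
Log2 differences (x axes) of the tested genes of the 6 red cell lists and the platelet list, for the change at 3 weeks in C57BL/6, the change in C3H/HeJ, and the difference of both. Diamonds are the 5 genes, and filled symbols passed an adjusted p of 0.05; most genes of the lists lie near zero where Hbb-b2 is at -1.50 in C57BL/6.

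Markers of other cells moved in the same C57BL/6 lungs, and their part in the red cell result was not tested. Of all genes, 13.1% were called in C57BL/6 at 3 weeks, 5.97% as lower. Of 9 endothelial markers, 8 were lower at 3 weeks, and their summed intensity was 8948 to 9034 in C57BL/6 controls and 4282 to 5955 at 3 weeks, against 9856 to 10130 and 8482 to 9406 in C3H/HeJ. Tek and Car4, the latter of lung capillaries, changed by -0.89 and -1.17. Of 9 heart muscle markers, 8 were lower, with sums of 5441 to 5541 in control and 1847 to 2433 at 3 weeks. In C3H/HeJ 6 of the 9 were lower, against 2.83% of all genes called, and the sums were 5046 to 5717 and 2389 to 3295.

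Of 9 tested platelet genes, cells that like red cells come with the blood, Ppbp (-1.46 ± 0.33, limma adjusted p = 0.00667) and Clec1b (-1.02 ± 0.23, 0.00701) were lower in C57BL/6 at 3 weeks, and Thbs1, made by many injured tissues, was higher (1.37 ± 0.27, limma adjusted p = 0.00265). Pf4, Treml1 and 4 others did not pass. The platelet sums, which include Thbs1, overlapped, 2557 to 3943 in control and 2465 to 3257 at 3 weeks. Of the 9 genes 8 lay below zero and 1 above, with a median of -0.34. In C3H/HeJ at 3 weeks 6 lay above zero and 3 below, with a median of 0.24. There 1 was called higher, against 2.83% of all genes called. Cd2 (-0.73) and Cd247 (0.46) had the smallest p among T cell genes. Of 4 B cell markers 3 were lower, of 5 T cell markers none was called, 5 of 9 macrophage, 3 of 6 neutrophil and 7 of 10 cell cycle genes were higher, and of 10 alveolar genes 1 was higher and 4 lower. These counts are for C57BL/6 at 3 weeks, where 13.1% of all genes were called, 5.97% as lower.

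The macrophage sums were 5019 to 5058 in C57BL/6 control and 7448 to 8403 at 3 weeks, with Cd68 up by 1.66 and Fcgr1 by 2.07. The neutrophil sums were 1220 to 1648 and 3726 to 3811, with S100a8 up by 1.70 and Csf3r by 1.02. The B cell sums were 868 to 980 and 351 to 557, with Cd79a down (-1.36) and Ms4a1 down (-1.55). The T cell sums overlapped. The cell cycle sums were 1424 to 1440 and 2460 to 2771, with Rrm2 up by 1.51 and Birc5 by 1.68. The alveolar sums were 38200 to 38980 and 31650 to 32060, with Sftpa1 lower (-0.60) and Hopx lower (-0.47), and the heart genes named by the same rule were Sln (-1.45) and Myl7 (-1.54).

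Among the tested genes, those most like each member over the 21 arrays were found by Pearson's r of log2 values, a description in which the arrays share strains, groups and scaling. Alas2 was most like Fech (r = 0.93), Slc25a37 (0.91) and Ccndbp1 (0.91), and Slc4a1 most like Trim10 (0.82), Ube2o (0.76) and Fech (0.76). Bpgm was most like Tent5c (0.85), Cdr2 (0.81) and Fech (0.81). Fech itself was at 774 to 978 in C57BL/6 controls, 574 to 625 at 3 weeks and 564 to 653 when moribund, and at 636 to 835 in C3H/HeJ controls and 1082 to 1303 at 3 weeks. Its treated C57BL/6 pools were below the controls and its 3 week C3H/HeJ pools above them.

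Outside the members, Hbb-b2 was most like Myh7, a heart muscle myosin (r = 0.89), Leng8 (0.89) and Mfng (0.89). Its r with the member Alas2 was higher, at 0.91. Myh7 was 319 to 321 in A/J, 179 to 251 in C3H/HeJ and 62.8 to 69.8 in C57BL/6 controls, and 26.3 to 34.3 in C57BL/6 at 3 weeks. Tfrc was most like Enpep, a membrane peptidase (r = 0.89), Ppp1r14c (0.88) and Gstt1 (0.88), none of them in the red cell lists. Enpep was 1136 to 1161 in C57BL/6 controls and 416 to 706 at 3 weeks.

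Among the members, Hbb-b2 and Alas2 correlated most over the 21 arrays (r = 0.91), followed by Alas2 and Bpgm (0.83), Slc4a1 and Bpgm (0.78) and Alas2 and Slc4a1 (0.74). The values of Tfrc with the other 4 were between 0.57 and 0.69.

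Alas2, Slc4a1, Bpgm and Hbb-b2 varied more between pools than most genes. The standard error of a change of 2 against 2 pools was larger for Alas2 than for 95.5% of the tested genes, for Slc4a1 than for 94.7%, for Bpgm than for 87.5% and for Hbb-b2 than for 82.4%, and for Tfrc than for 20.1%. Within a group the male and female pools differed by up to 1.51 on the log2 scale for Slc4a1 (C57BL/6 control), 1.18 for Alas2 and 0.86 for Hbb-b2 (both C3H/HeJ control), 0.59 for Bpgm and 0.45 for Tfrc. In 3 of the 8 groups of 2 pools Hbb-b2, Alas2, Slc4a1 and Bpgm were all on the same side: higher in the male pool in C3H/HeJ control, and higher in the female pool in C3H/HeJ and A/J at 6 weeks.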

How the data were processed

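RNA from 21 lung pools was hybridised to 1 Affymetrix array each. The series table holds the authors' deposited intensity of 22690 probe sets on a linear scale. The sources used here do not give how probes were summarised or whether arrays were scaled. Probe sets were named from the platform annotation, and 20380 had a single gene symbol. After 64 control probe sets were dropped, intensities were quantile normalized and log2(intensity + 16) was taken. The dimmest 33.3% of probe sets by mean were dropped, which left 15084, and the probe set with the highest mean stood for each of 9079 genes.

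A linear model with the 10 groups and sex was fitted with limma 3.58.1 (R 4.3.3; 10 residual and 16.9 total degrees of freedom, trended variance), which uses all arrays for 1 estimate of the spread. Calls are two-sided at a Benjamini-Hochberg adjusted p under 0.05 over all features, in 13 comparisons. The fit was tested on simulated data. The members and lists were chosen with earlier results of these data known, and no test over a list was made. Apart from the 5 genes, most genes named from the red cell and platelet lists were chosen by rule. Of each list the rule took up to 4 tested genes with the smallest p at 3 weeks in C57BL/6. It also took up to 4 with the smallest p in the difference of the changes. Some genes that it took are not named, and Klf1, Epor and Hk1 were named outside it. The text also names up to 2 of each other marker list and the 3 genes outside the members most like each member. The number of arrays limits the precision. Alternatives were other scalings, pseudocounts, filters and models and leaving out each array.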

Additional observations from a re-analysis of the deposited data

Results flagged for a closer look

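The change of Hbb-b2 at 3 weeks differed between strains by the test of the difference itself. It was -2.32 on the log2 scale for C57BL/6 minus C3H/HeJ and -1.73 for C57BL/6 minus A/J, with the same C57BL/6 pools in both. Which beta-globin chains the probe set reads in each strain was not tested, nor was any other explanation.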

How the results depend on the processing

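Of 967 alternative values for the 5 genes, 869 kept direction and side of the threshold, 44 lost the call, 16 gained one and 38, none of them called, changed sign. Hbb-b2 in C57BL/6 at 3 weeks was called in 14 of 14 alternatives. The number of genes of the 5 called at 3 weeks in C57BL/6 (4) was 5 with array weights, 2 with median scaling and with the C57BL/6 arrays alone, and 1 to 4 with 1 array left out; moribund lung (5) gave 2 to 4. The difference of changes from C3H/HeJ (1) gave 0 on deposited values and with the arrays of both strains alone, and 0 to 2 with 1 array left out; that from A/J (1) gave 0 on deposited values and at matched A/J doses, 4 with array weights, and 0 to 1. Control lung, C57BL/6 against C3H/HeJ (0), gave 1 on deposited values, with median scaling, pseudocount 1, no sex term and array weights, and 0 to 1; against A/J 0 to 1. The 3 week lungs (2) gave 1 on deposited values, with median scaling, array weights and the arrays of both strains alone, and 1 with each array left out. Called probe sets (6) were 3 on deposited values, with median scaling and with no filter, 2 with the C57BL/6 arrays alone, and 1 to 4. Slc4a1 is not tested when the dimmest 50% are dropped.

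Signs changed on deposited values for Tfrc at 6 weeks in C3H/HeJ (-0.033), for Hbb-b2 (-0.16), Alas2 (-0.0031) and Tfrc (-0.39) at 3 weeks in A/J, for Bpgm (-0.13) and Tfrc (-0.27) at 6 weeks in A/J, and for Tfrc between 3 week lungs (0.10). With median scaling they changed for Tfrc at 3 weeks (-0.060) and 6 weeks (-0.10) in A/J and between C57BL/6 and A/J controls (-0.092). With 1 array left out, moribund minus 3 weeks ranged from -0.085 to 0.51 for Hbb-b2 and -0.46 to 0.24 for Alas2, and Tfrc in C3H/HeJ from -0.23 to 0.14 at 3 weeks. At 6 weeks in C3H/HeJ the ranges were -0.39 to 0.50 for Hbb-b2, -0.79 to 0.49 for Alas2 and -0.15 to 0.22 for Tfrc, and -0.11 to 0.26 for Tfrc against 3 weeks. In A/J they were -0.039 to 0.70 for Alas2 and -0.10 to 0.14 for Tfrc at 3 weeks, and at 6 weeks -0.38 to 0.090 for Hbb-b2, -0.62 to 0.12 for Alas2, -0.42 to 0.10 for Slc4a1, -0.24 to 0.47 for Bpgm and -0.12 to 0.13 for Tfrc. Between controls they were -0.33 to 0.56 for Hbb-b2 (C57BL/6 minus C3H/HeJ), and -0.61 to 0.12 for Alas2, -0.18 to 1.39 for Slc4a1 and -0.14 to 0.24 for Tfrc (C57BL/6 minus A/J). The causes were not tested.

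Over all genes, 1186 calls at 3 weeks in C57BL/6 ranged from 387 to 1845 over other settings and from 427 to 831 with 1 array left out, and 1384 in moribund lung from 528 to 1925 and 669 to 1546. These ranges were 86 to 286 and 68 to 221 for 257 calls in C3H/HeJ at 3 weeks, 2 to 132 and 5 to 184 for 27 in the difference from C3H/HeJ, and 25 to 462 and 17 to 182 for 142 in that from A/J. On deposited values the median change of all genes at 3 weeks was -0.16 in C57BL/6 and -0.32 in C3H/HeJ, against 0.01 and -0.03 after quantile normalization; higher calls in C57BL/6 were 54.3% of all, 41.9% on deposited values and 66.7% with median scaling. No paired analysis was possible because every pool was made of different mice and no label ties pools across groups, so replicate numbers name only the pools.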

Other observations

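Probe sets annotated to several globin genes were 4 in number, and their tests were looked at after the values were seen. One alpha-globin probe set (1417714_x_at, Hba-a2 and Hba-a1) was lower in C57BL/6 at 3 weeks (-0.93 ± 0.21, limma adjusted p = 0.00863) and in moribund lung (-1.13 ± 0.21, 0.00192). It read 2706 and 2863 in the male and female C57BL/6 controls, 1216 and 1733 at 3 weeks, 1103 at 6 weeks and 1465 and 1083 when moribund, with no overlap between treated and control pools. It read 2110 to 3742 in A/J, where its change at 3 weeks was 0.05, not called. In C3H/HeJ it read 7760, the highest normalized value an array can have here, in both pools at 3 weeks and in 1 of 2 controls, so a rise could not show and its change there is not read. The other alpha-globin probe sets (1428361_x_at and 1452757_s_at) and the joint beta-globin one were not called in C57BL/6, at 0.08, -0.02 and -0.08, and ranked among the 87 brightest on all 21 arrays.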
